A study of Mus musculus with 12 samples.

Results

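The cortex of mouse embryos carrying a conditional knockout (cKO) labelled BAF155 was compared with control cortex at embryonic day E15.5, gene by gene, from raw read counts. Genes on chromosomes X and Y were left out because the groups differed in sex. Of 48709 genes listed in the counts, 28468 lay off those chromosomes and had at least 1 read in a library. After a filter on low counts 15884 of them were tested, and the other 12584 were not. All embryos were of the strain C57BL/6J, and the tissue in all groups was embryonic cortex. The labels name the knockout, but not the Cre line, the cells in which it acts or the age of deletion, and they give no genotype for the control beyond its name. The BAF155 cKO and control groups had 4 libraries each. A further 4 libraries labelled Pax6 cKO, of the same age and tissue, shared in the estimate of the spread. They served in 1 direct contrast, and the ranked genes were compared with control in them too.

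BAF155 is encoded by Smarcc1 and is a scaffold subunit of the BAF complex, which uses ATP to move or evict nucleosomes and so changes which stretches of DNA are open to transcription factors. In the embryonic cortex, radial glia divide at the ventricle and give rise to basal intermediate progenitors that express Eomes, which in turn produce glutamatergic projection neurons, the deep layers before the upper ones. Radial glia later give rise to astrocytes. GABAergic interneurons are born in the ventral telencephalon and migrate into the cortex, and Cajal-Retzius neurons come from the borders of the cortical sheet.

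Total counts were 15.2 to 28.3 M reads in the BAF155 cKO libraries and 21.4 to 30.3 M in control. Xist, which marks female cells, was at 1811 to 3115 CPM in the BAF155 cKO (CPM being a count scaled to the total of its library), at 964 CPM in control replicates 3 and 4, and at no more than 5.75 CPM in control replicates 1 and 2. BAF155 cKO replicates 1 and 2 came from sequencing lane 1, replicates 3 and 4 from lane 3, and all controls from lane 8, so lane and group cannot be told apart. The BAF155 cKO libraries were not alike. Replicates 1 and 4 lay close together, at a chi-square of 13.6 per gene, as did 2 and 3 at 10.2. The other pairs of the group were at 19.2 to 50. Replicate 2 was nearer to control replicate 4 (20.8) than to BAF155 cKO replicates 1 (50) and 4 (43.8). Replicate 3 was nearer to control replicate 2 (16.6) than to BAF155 cKO replicates 1 (28.8) and 4 (19.2). This chi-square was taken on raw counts and grows with depth, so pairs of unlike depth are compared only roughly. Mitochondrial reads made up 2.92% and 3.27% of replicates 1 and 4, 1.57% and 2.09% of 2 and 3, and 1.21% to 2.27% of the controls. Markers of cortex were present in every library. Emx2, a homeobox gene of dorsal telencephalon, was at 39.4 to 58.2 CPM in the BAF155 cKO and 40.8 to 65.0 CPM in control, while the Hox genes searched, which mark hindbrain and spinal cord, had no more than 1 read in any of the 8 libraries.

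The targeted gene was lower in each BAF155 cKO library. Smarcc1 (ENSMUSG00000032481, GRCm38/mm10 chromosome 9, 110117708 to 110240178, plus strand) stood at 122, 133, 139 and 115 CPM in the knockout libraries, in replicate order here and below, and at 219.7, 275, 359 and 361 CPM in the controls. The groups did not overlap, and control replicates 3 and 4 were the highest. Its fitted log2 fold change was −1.25 (SE 0.13, adjusted p = 1.64e-05 by edgeR's quasi-likelihood test, n = 4 per group), and leaving out any single library gave −1.39 to −1.16. Counts over the whole gene do not say how much intact transcript was left. Smarcc1 was also below control in the libraries labelled Pax6 cKO, at 186 ± 6.71 CPM (log2 fold change −0.71, adjusted p = 0.00128). The fall against control was thus not confined to the BAF155 cKO. Exons of Dhx30 overlap Smarcc1 and the libraries do not mark strand; Dhx30 itself had a log2 fold change of −0.01 (adjusted p = 0.961). Of 24 tested genes within 1 Mb on either side of Smarcc1, 1 fell and 0 rose. It was Map4, a microtubule-associated protein gene 33.8 kb away, from 398 ± 38.5 to 306 ± 31.1 CPM (mean ± SD, n = 4 each; log2 fold change −0.38, adjusted p = 0.0156), chosen after its value was seen. Within 5 Mb, 10 of 156 genes rose and 7 fell, or 10.9% called, against 13.7% of all genes tested.

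Of the 15884 genes tested, 964 rose (6.07%) and 1208 fell (7.61%) in the BAF155 cKO, 13.7% in all, at an adjusted p under 0.05. The shares of 6.07% and 7.61% are the background against which the counts of each list below are to be read. Most changes were modest. The median log2 fold change was 0.63 among genes that rose and −0.57 among those that fell, against 0.01 over all genes tested. A change of at least 2-fold was found for 191 genes that rose (1.20%) and 211 that fell (1.33%). A log2 fold change past 3 in size was found for 14 that rose and 6 that fell. The 4 BAF155 cKO libraries lay wholly above the 4 controls for 1034 genes (6.51%) and wholly below for 1266 (7.97%). Against control replicates 3 and 4 alone, which share the sex of the BAF155 cKO, 720 of the 964 and 1066 of the 1208 genes were called in the same direction, which is 82.2% of all genes called and 11.2% of all genes tested. The replicates did not carry the calls equally. Of the genes called, 79.8% lay beyond all 4 controls in BAF155 cKO replicate 2, 93.5% in replicate 3, 96.4% in replicate 1 and 99.0% in replicate 4. The counts moved with single libraries. Without BAF155 cKO replicate 4, 335 rose and 634 fell, without replicate 1 these were 496 and 784, and without replicate 2 they were 1898 and 2035. Leaving out control replicate 1 gave 1319 and 1812, leaving out 3 gave 399 and 721, and leaving out 4 gave 475 and 764. With only the 8 libraries compared, so that those labelled Pax6 cKO had no part in the spread, 367 rose and 636 fell.

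**Figure D1:**
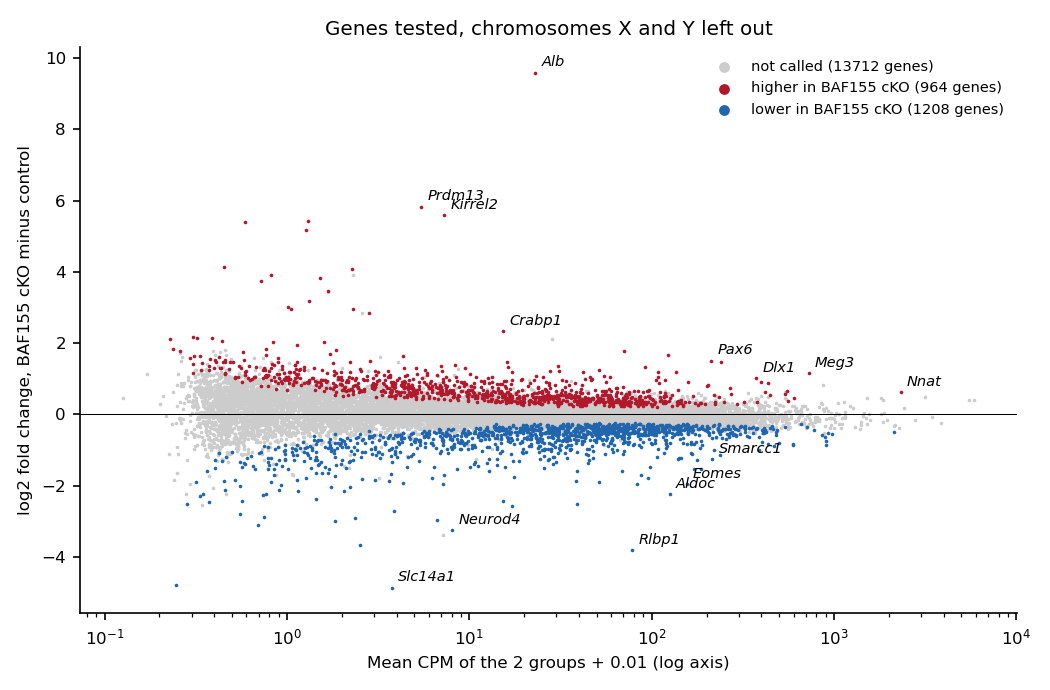
Log2 fold change (BAF155 cKO minus control) against mean CPM of both groups on a log axis, 1 point per gene tested off chromosomes X and Y, with genes called higher in red (964), called lower in blue (1208) and the rest in grey. Alb, Prdm13 and Kirrel2 stand highest and Slc14a1, Rlbp1 and Neurod4 are among the lowest.

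**Figure D2:**
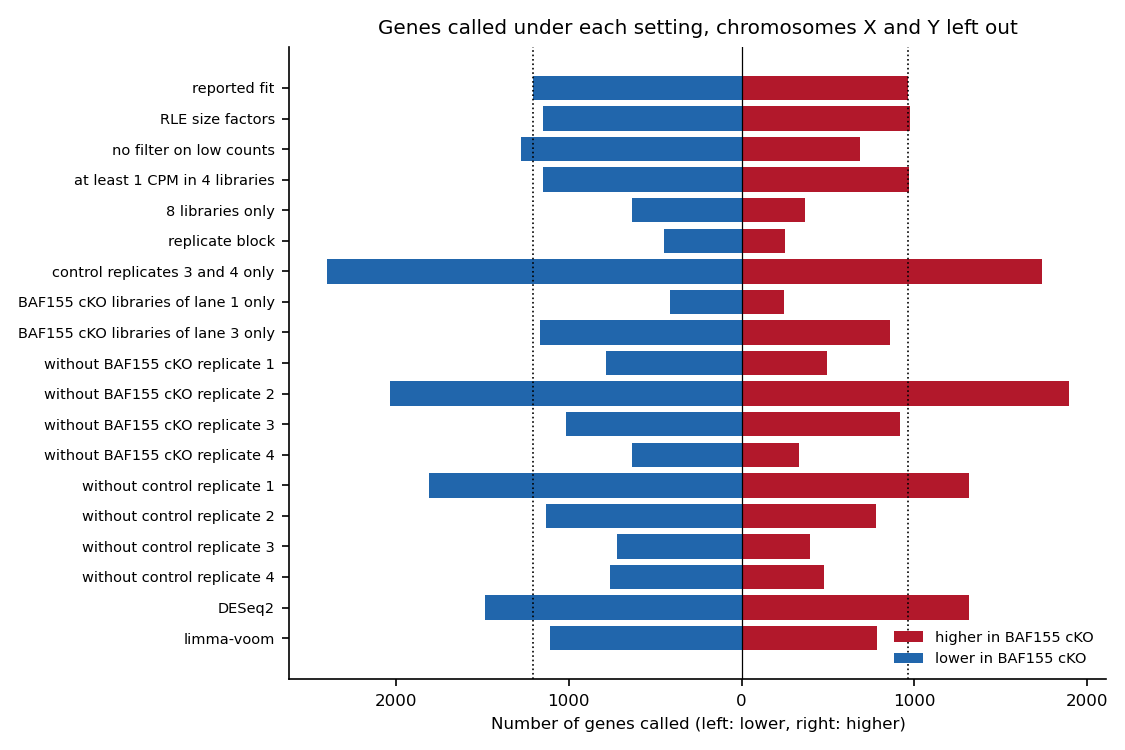
Number of genes called higher (right) and lower (left) under the reported fit and each of 18 alternatives, with dotted lines at the reported 964 and 1208. The counts ran from 248 to 1898 higher and from 416 to 2403 lower.

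Called genes were spread over all autosomes. The share called ran from 10.5% on chromosome 19 to 16.9% on chromosome 1. Genes that rose were more often of low level: among genes with a mean of 1 to 10 CPM, 8.84% rose and 6.92% fell, while above 100 CPM 2.90% rose and 9.14% fell. The direction of calls differed with exon length as well. Among the 2715 protein-coding genes with the shortest summed exons, up to 2607 bases, 6.70% rose and 4.24% fell, and among the 2714 with the longest, from 7800 bases, 5.01% rose and 11.9% fell. The median log2 fold change went from 0.08 to −0.08 over the same range. Whether this belongs to the RNA or to the libraries was not tested.

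The genes with the largest changes at a usable level were ranked among those with a mean of at least 5 CPM in the higher group, no overlap of the 8 libraries and a call against control replicates 3 and 4 too; 306 that rose and 662 that fell met these conditions. The 12 highest were Prdm13, Kirrel2, Crabp1, Wls, Ddn, Pax6, Dlx6os1, Cyp26b1, Lin28b, Adarb2, Adamts19 and Calb1. The 12 lowest were Slc14a1, Rlbp1, Neurod4, Dapp1, Ly6g6e, Veph1, Lpar1, Aldoc, Tfap2d, Eomes, Neurog2 and Mlip. Of these 24, 23 were called under all 18 alternatives, and Ddn was not called with the BAF155 cKO libraries of lane 1 alone (adjusted p = 0.115). The promoter windows of Prdm13 and Kirrel2, the highest ranked and nearly silent in control, and of Rlbp1 and Neurod4, among the lowest ranked, are shown so that their base composition can be compared. They hold the 250 bases before the RefSeq start (GRCm38.p6), 5′ to 3′ on the gene's strand, with each CG dinucleotide, the site of DNA methylation, in capitals. Prdm13 is from chr4:21685964-21686213 (minus strand), Kirrel2 from chr7:30457516-30457765 (minus strand), Rlbp1 from chr7:79387028-79387277 (minus strand) and Neurod4 from chr10:130280255-130280504 (minus strand). The GENCODE M21 gene reaches into the windows of Kirrel2 and Rlbp1.
Prdm13: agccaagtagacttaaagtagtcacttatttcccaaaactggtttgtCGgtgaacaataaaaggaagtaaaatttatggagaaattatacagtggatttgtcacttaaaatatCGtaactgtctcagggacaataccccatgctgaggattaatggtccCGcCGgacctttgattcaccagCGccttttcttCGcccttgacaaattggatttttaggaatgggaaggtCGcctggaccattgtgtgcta
Kirrel2: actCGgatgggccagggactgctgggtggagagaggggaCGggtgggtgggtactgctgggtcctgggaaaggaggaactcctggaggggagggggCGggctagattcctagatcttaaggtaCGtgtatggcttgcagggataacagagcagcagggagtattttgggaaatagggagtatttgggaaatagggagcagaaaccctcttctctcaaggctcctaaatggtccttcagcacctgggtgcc
Rlbp1: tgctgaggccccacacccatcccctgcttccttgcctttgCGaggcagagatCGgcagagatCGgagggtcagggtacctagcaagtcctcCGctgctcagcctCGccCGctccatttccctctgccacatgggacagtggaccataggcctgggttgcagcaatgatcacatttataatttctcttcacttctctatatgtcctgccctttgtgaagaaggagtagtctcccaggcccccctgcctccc
Neurod4: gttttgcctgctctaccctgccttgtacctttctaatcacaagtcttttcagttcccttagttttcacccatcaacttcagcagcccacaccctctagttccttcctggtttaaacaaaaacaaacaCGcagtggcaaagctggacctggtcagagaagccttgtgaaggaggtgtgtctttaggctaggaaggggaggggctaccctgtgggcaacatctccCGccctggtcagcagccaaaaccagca

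The windows held 7 CG in Prdm13, 4 in Kirrel2, 6 in Rlbp1 and 2 in Neurod4. Over the 10605 tested protein-coding genes matched to a RefSeq promoter by symbol, of 13574, the median was 16 CG per window. It was 14 for the 547 matched genes that rose and 17 for the 888 that fell, and 8 and 10 for those that rose (69) or fell (135) by at least 2-fold. Both sets of large changes thus had fewer CG than the median tested gene, and all 27025 promoters in the table had a median of 6. The letters CAGCTG and CAGATG, forms of the E-box read by proneural factors, and TTCCCAC, a form read by the Notch effector Rbpj, were searched on both strands. None of them stood in the 4 windows printed. CAGCTG was in 17.4% of the windows of genes that rose by at least 2-fold and 16.3% of those that fell, against 11.8% of tested genes and 12.8% of all promoters. CAGATG was in 13% and 15.6%, against 10% and 14.5%, and TTCCCAC in 5.80% and 5.93%, against 5.5% and 5.41%. These are letter matches and not sites of binding.

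Prdm13 and Kirrel2 rose most of the ranked genes. Prdm13 (ENSMUSG00000040478, chromosome 4, 21677480 to 21685963, minus strand), a PR domain transcription factor of the developing hindbrain, spinal cord and hypothalamus, was at 11.4, 16.0, 8.12 and 7.28 CPM in the BAF155 cKO and at 0.0992, 0.0947, 0.29 and 0.287 CPM in the controls. Kirrel2 (ENSMUSG00000036915, chromosome 7, 30447534 to 30457690, minus strand), a cell adhesion gene of the nephrin family, was at 11.9, 20.3, 12 and 12.6 CPM against 0.231, 0.379, 0.145 and 0.43 CPM. All 4 BAF155 cKO libraries stood far above all controls, replicate 2 highest for both. The log2 fold changes were 5.83 (SE 0.34, adjusted p = 2.2e-08) and 5.59 (SE 0.27, adjusted p = 3.26e-09). The controls together had only 17 reads of Prdm13 and 27 of Kirrel2, and the ratios of summed reads, scaled by library size, were 63.0 (39.2 to 109, exact 95.0% interval) and 51.1 (34.9 to 77.8), intervals that cover counting error only.

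**Figure D3:**
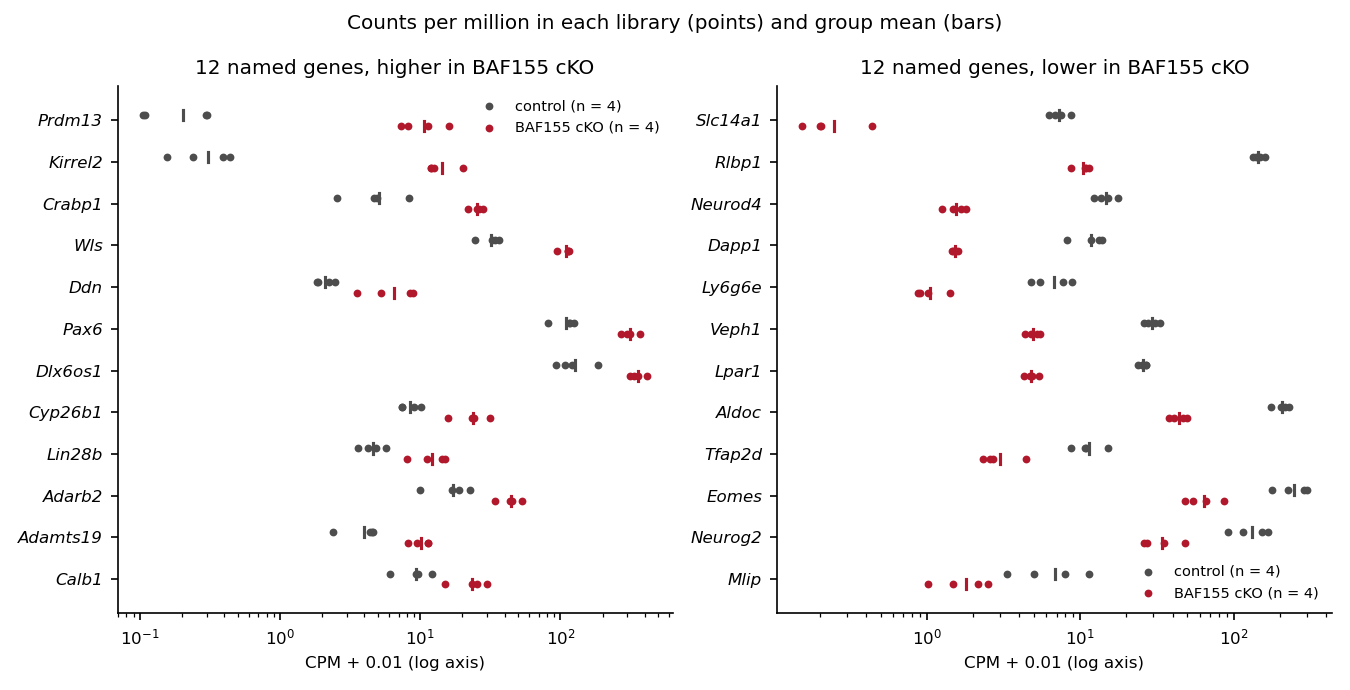
CPM plus 0.01 on a log axis for the 12 highest (left) and 12 lowest (right) ranked genes, with 1 point per library, a bar at the mean of each group, control in grey and BAF155 cKO in red (n = 4 each). In all 24 genes the points of the groups do not overlap, which the rule for naming required.

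Radial glia genes fell in part. Of 26 tested, 11 fell and 1 rose, with a median log2 fold change of −0.38 against 0.01 over all genes, where 7.61% fell and 6.07% rose. Veph1 fell from 26.1, 30.9, 32.9 and 27.5 CPM in control replicates 1 to 4 to 4.35, 5.46, 5.20 and 4.72 CPM (log2 fold change −2.57, SE 0.12, adjusted p = 1.88e-09). Aldoc, the aldolase of glia, fell from 175, 231, 217 and 205 CPM to 41.0, 46.6, 49.5 and 37.6 CPM (−2.24, SE 0.11, adjusted p = 4.38e-09). Neither overlapped between groups. The intermediate filament genes Vim (−0.81, adjusted p = 0.0089) and Nes (−0.55, adjusted p = 0.013), the orphan receptor gene Nr2e1 (−0.71, adjusted p = 0.0268), the Notch effector Hes1 (−0.56, adjusted p = 0.0337) and Hopx (−0.56, adjusted p = 0.0116) also fell. Other radial glia genes did not pass the test: Sox2 was at 123 ± 25.5 CPM against 111 ± 31.6 in control (log2 fold change 0.14, adjusted p = 0.615), the Notch effector Hes5 had −0.10 and Fabp7 had 0.09. Without BAF155 cKO replicate 1, control replicate 3 or control replicate 4, the count that fell was 7. It was 5 with only the 8 libraries of BAF155 cKO and control, and 6 when these had the replicate number as a block. With the BAF155 cKO libraries of lane 1 alone it was 4, with those of lane 3 alone 12, and against control replicates 3 and 4 alone 15.

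Pax6 (ENSMUSG00000027168, chromosome 2, 105668900 to 105697364, plus strand), the radial glia gene that rose, encodes a transcription factor that sets cortical identity and promotes neurogenesis. It was at 313, 369, 273 and 301 CPM in the BAF155 cKO and at 82.0, 118, 125 and 116 CPM in control (log2 fold change 1.51, SE 0.12, adjusted p = 9.98e-07). Every BAF155 cKO library was above every control.

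Of 26 genes of early astroglia tested, 12 fell and 2 rose (median −0.54), and 12 to 15 fell with any single library left out; Gjb6 and Agt did not pass the filter. Rlbp1 (ENSMUSG00000039194, chromosome 7, 79374870 to 79387048, minus strand), a retinaldehyde-binding protein of Müller and other glia, was at 133, 149, 159 and 139.9 CPM in control and at 10.7, 11.3, 10.9 and 8.68 CPM in the BAF155 cKO. Its log2 fold change of −3.80 (SE 0.10, adjusted p = 1.91e-12) was 13.9-fold. Slc14a1 (ENSMUSG00000059336, chromosome 18, 78100091 to 78142119, minus strand), a urea transporter of astrocytes, went from 6.78, 6.20, 8.65 and 7.5 CPM to 0.427, 0.143, 0.19 and 0.192 CPM (−4.86, SE 0.27, adjusted p = 1.5e-08). Each BAF155 cKO library was below every control in both genes. The matrix protein gene Tnc (−1.53, adjusted p = 4.88e-07), the water channel Aqp4 (−1.33, adjusted p = 0.000296) and the folate enzyme Aldh1l1 (−0.92, adjusted p = 0.00119) fell as well. The glutamate transporter Slc1a3, held in the radial glia list, fell from 292 ± 29.9 to 145 ± 9.12 CPM (−1.01, SE 0.09, adjusted p = 1.49e-06, n = 4 each), while the related transporter Slc1a2, of the astroglial list, was at 108 ± 7.84 against 88.8 ± 14.7 CPM (0.29, adjusted p = 0.0772). In bulk tissue, fewer cells of a type and less RNA per cell cannot be told apart.

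Of 24 genes of basal progenitors and neurogenic commitment tested, 9 fell and 4 rose (median −0.14), and 9 or 10 fell with any single library left out. Eomes (ENSMUSG00000032446, chromosome 9, 118478212 to 118486132, plus strand), the T-box factor that defines basal progenitors, was at 177, 225, 300 and 286 CPM in control and at 65.8, 87.1, 54.4 and 48.1 CPM in the BAF155 cKO. Neurog2, the proneural factor upstream of it, was at 92.4, 115, 167 and 154 CPM against 34.9, 48.4, 27.3 and 26.2 CPM. For both genes, control replicates 3 and 4 were highest, BAF155 cKO replicate 2 was the highest of its group, and the groups did not overlap. The log2 fold changes were −1.95 (SE 0.18, adjusted p = 3.8e-06) and −1.94 (SE 0.20, adjusted p = 1.29e-05). Neurod4 (ENSMUSG00000048015), a related bHLH factor, fell from 14.6 ± 2.27 to 1.54 ± 0.238 CPM (−3.25, SE 0.17, adjusted p = 6.36e-09, n = 4 each). Neurod1 (−1.02, adjusted p = 0.00034), the kinesin gene Kif26b (−1.59, adjusted p = 2.83e-07) and the somatostatin receptor gene Sstr2 (−0.86, adjusted p = 0.000123) fell. By contrast the Notch ligand Dll3 rose from 10.8 ± 1.73 to 19.4 ± 1.88 CPM (0.85, SE 0.13, adjusted p = 0.000717). Insm1, of the same list, had −0.33 (adjusted p = 0.15), Hes6 had 0.16 and Dll1 had −0.07, none past the test.

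Of 20 upper-layer neuron genes tested, 14 fell and 0 rose (median −0.50), 12 to 16 fell without any single library, and 17 fell against control replicates 3 and 4 alone. With the BAF155 cKO libraries of lane 1 alone 10 fell, and with those of lane 3 alone 17 did. Unc5d, a netrin receptor of migrating upper-layer neurons, was at 150.4, 139.8, 145 and 138 CPM in control and at 49.0, 61.2, 46.7 and 50.6 CPM in the BAF155 cKO. The groups were separate (−1.47, SE 0.09, adjusted p = 3.3e-08). The POU factors Pou3f2 (−1.27, adjusted p = 9.14e-07), Pou3f3 (−1.01, adjusted p = 0.000419) and Pou3f1 (−1.0, adjusted p = 0.000168) fell together, as did Rorb (−0.59, adjusted p = 0.00372), Cux2 (−0.47, adjusted p = 0.0162) and Cux1 (−0.38, adjusted p = 0.016).

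Of 20 deep-layer genes tested, 5 fell and 2 rose (median −0.25), and 4 to 8 fell with a single library left out; Cplx3 was not tested. Hs3st4, a heparan sulfate enzyme of corticothalamic neurons, fell from 61.2 ± 7.44 to 33.1 ± 5.54 CPM (−0.89, SE 0.12, adjusted p = 0.000157), and the corepressor Tle4 fell from 159 ± 14.3 to 106 ± 10.6 CPM (−0.58, SE 0.09, adjusted p = 0.00053). Bcl11b, a factor of subcerebral neurons, was at 210.5, 276, 314 and 218 CPM in the BAF155 cKO and 192, 314, 390.2 and 379 CPM in control, where the groups overlapped (−0.32, adjusted p = 0.232). The calmodulin-binding gene Pcp4 rose (0.57, adjusted p = 0.00274), a call that was lost with the BAF155 cKO libraries of lane 1 alone (adjusted p = 0.0508). Whether upper and deep layers differ was not tested.

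Of 18 Cajal-Retzius and preplate genes tested, 10 rose and 1 fell (median 0.45), and 7 rose without BAF155 cKO replicate 4 or control replicate 3. With the BAF155 cKO libraries of lane 1 alone 5 rose, and with those of lane 3 alone 9 did. Ebf3, a transcription factor of Cajal-Retzius neurons, was at 32.9, 27.9, 28.3 and 30.0 CPM in the BAF155 cKO and at 14, 13.5, 15.4 and 18.2 CPM in control, with no overlap (0.97, SE 0.10, adjusted p = 1.79e-05). The p53 relative Trp73 rose from 30.0 ± 4.18 to 53.3 ± 6.73 CPM (0.83, SE 0.11, adjusted p = 0.000143), and Ebf2 (1.11, adjusted p = 0.00423), Lhx5 (0.80, adjusted p = 0.00712) and Lhx1 (0.79, adjusted p = 0.00657) rose with it. Reln, the secreted product by which these cells are best known, was at 439 ± 14.4 CPM against 381 ± 60.4 CPM and did not pass the test (0.21, adjusted p = 0.179).

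Of 29 genes of the ventral telencephalon and of GABAergic neurons tested, 12 rose and 1 fell (median 0.45), and 9 rose without BAF155 cKO replicate 4 or control replicate 3. With the BAF155 cKO libraries of lane 1 alone 5 rose, and with those of lane 3 alone 11 did. Dlx1, a homeobox gene of GABAergic progenitors, was at 483, 481, 510.1 and 535 CPM in the BAF155 cKO and at 219.9, 298, 211 and 253 CPM in control (1.03, SE 0.10, adjusted p = 9.77e-06). Gad1, which encodes a GABA-synthesising enzyme, was at 189, 141, 197 and 229 CPM against 77.6, 104, 61.3 and 88.7 CPM (1.19, SE 0.16, adjusted p = 0.000157). In both genes each BAF155 cKO library was above each control, and in control replicate 2 was the highest. The long noncoding transcript Dlx6os1 (1.48, adjusted p = 4.65e-05), Gsx2 (1.06, adjusted p = 0.00328), Dlx5 (0.87, adjusted p = 0.00371) and Dlx6 (0.97, adjusted p = 0.0105) rose. Lhx6 and Nkx2-1, genes of the medial ganglionic eminence, were not called. Lhx6 was at 84.2 ± 10.8 CPM against 85.5 ± 6.13 (−0.02, adjusted p = 0.871). Nkx2-1 was at 6.21, 1.53, 4.12 and 3.06 CPM against 3.34, 4.55, 0.532 and 15.2 CPM (−0.65, adjusted p = 0.621), uneven within control. Sst, the somatostatin gene, rose (1.19, adjusted p = 0.0247), but not without BAF155 cKO replicate 3 or 4 or control replicate 1, 3 or 4 (adjusted p = 0.0563 to 0.0974). How much of this comes from the dissected area was not tested.

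Transcription factors of the hypothalamus and other diencephalon were mostly absent from these libraries, yet a few appeared in the BAF155 cKO. Of 30 listed, 12 were tested and 18 were too low. Of the 12, 6 rose and 1 fell, and 6 or 7 rose with any single library left out. The count that rose was 3 with a filter of at least 1 CPM in 4 libraries. It was 4 with no filter and 4 against control replicates 3 and 4 alone. Members near 0 in control could pass the filter on low counts only through libraries where they were higher, so the share that rose is partly set by the filter. Sim1, a bHLH-PAS factor of the paraventricular hypothalamus, was at 1.51, 3.32, 2.35 and 3.0 CPM in the BAF155 cKO and at 0.0992, 0.0474, 0 and 0.0478 CPM in control, 216 reads against 5. The scaled ratio was 47.1 (19.9 to 147), with an adjusted p of 1.05e-06. Uncx, a paired-type homeobox gene, was at 1.59, 1.78, 0.761 and 1.92 CPM against 0.0331, 0, 0.193 and 0.191 CPM, a ratio of 16.1 (8.24 to 36.0; adjusted p = 0.000123). Both were above control in every BAF155 cKO library. Otp and Fezf1 were low in replicate 1: Otp was at 0.0777 CPM in BAF155 cKO replicate 1 and 1.93, 1.46 and 1.09 CPM in replicates 2 to 4, and Fezf1 at 0.582 CPM in replicate 1 and 4.18, 3.81 and 3.77 CPM in 2 to 4. Control replicates 1 to 4 held 0, 0, 1 and 1 reads of Otp, a ratio of 52.4 (14.1 to 439; adjusted p = 0.00963), and 6, 5, 1 and 13 reads of Fezf1, a ratio of 11 (7.25 to 17.3; adjusted p = 0.00216). Replicate 1 of the BAF155 cKO was above all controls for Otp, with 2 reads against at most 1, and below control replicate 4 for Fezf1. The call of Otp was not made against control replicates 3 and 4 alone. Lhx9 (0.95, adjusted p = 0.00736) and Prox1 (0.54, adjusted p = 0.0144), both well expressed in control, rose. Tcf7l2, the Wnt effector of the thalamus, fell (−0.86, adjusted p = 0.00708), but not with the libraries of lane 1 alone (adjusted p = 0.112). The hypothalamic genes Rax and Six6 had 0 to 4 reads in any of the 8 libraries.

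Of 31 transcription factors of hindbrain and spinal cord, 7 were tested, of which 2 rose and 1 fell. The filter on low counts limits this share in the same way, and 1 rose with a filter of at least 1 CPM in 4 libraries. Prdm13 rose, as did Olig3, a bHLH factor of the dorsal neural tube and thalamus, at 0.544, 1.36, 0.698 and 0.766 CPM against 0, 0.0947, 0 and 0.0955 CPM. Olig3 had 75 reads against 4 (ratio 20.5, 7.67 to 77.0; adjusted p = 0.000676). Prdm8, a PR domain gene of cortical projection neurons, fell from 46.7 ± 6.13 to 30.7 ± 3.40 CPM (−0.60, SE 0.11, adjusted p = 0.00166). Ptf1a, which acts with Prdm13 in the dorsal spinal cord, was not tested and had 6, 14, 4 and 2 reads in the BAF155 cKO and 0, 0, 0 and 1 in control.

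Few genes that handle retinoids, the vitamin A derivatives that pattern the forebrain, were called. Of 17 tested, 3 rose (17.6%, against 6.07% of all genes tested) and 2 fell (11.8%, against 7.61%), with a median of 0.19. Aldh1a2, Rbp4 and Cyp26a1 were not tested. Crabp1, a cellular retinoic acid-binding protein, was at 21.8, 28.0, 26.3 and 25.4 CPM in the BAF155 cKO and at 2.54, 8.34, 4.64 and 4.92 CPM in control (2.33, SE 0.24, adjusted p = 1.6e-05). Cyp26b1, which degrades retinoic acid, was at 15.8, 24.0, 31.7 and 23.4 CPM against 9.02, 7.39, 7.40 and 10.1 CPM (1.48, SE 0.24, adjusted p = 0.000927). Rlbp1, also of this list, fell. Dhrs3, a retinaldehyde reductase, fell (−0.68, adjusted p = 0.0363), but its call was lost in 12 of 18 alternatives, among them the fits without BAF155 cKO replicate 1, 3 or 4 or without control replicate 1, 2 or 3 (adjusted p = 0.0572 to 0.103).

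In BMP and TGF-beta signalling, 11 of 36 genes tested fell and 3 rose (median −0.21), and 8 to 13 fell with a single library left out. With the BAF155 cKO libraries of lane 1 alone 6 fell, with those of lane 3 alone 9 did, and against control replicates 3 and 4 alone 14 did. Bmpr1b, a BMP receptor, was at 19, 20.3, 22.1 and 21.0 CPM in control and at 7.38, 7.71, 8.43 and 7.09 CPM in the BAF155 cKO (−1.43, SE 0.10, adjusted p = 2.83e-07). The ligand Bmp7 fell from 9.43 ± 0.846 to 4.62 ± 0.804 CPM (−1.02, SE 0.13, adjusted p = 0.000172), and the latent TGF-beta-binding proteins Ltbp2 (−2.87, adjusted p = 0.000409) and Ltbp1 (−1.02, adjusted p = 0.00109) and the ligand Tgfb2 (−0.52, adjusted p = 0.00664) fell. Of the intracellular mediators Smad1 fell (−0.39, adjusted p = 0.0155), and of the Id targets Id2 fell (−0.39, adjusted p = 0.0105). The 3 that rose were Bmp2 (0.76, adjusted p = 0.0397), Id1 (0.52, adjusted p = 0.0326) and Id3 (0.42, adjusted p = 0.0442). None of the 3 was called without BAF155 cKO replicate 2 or 4 or control replicate 3, and none against control replicates 3 and 4 alone.

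Of 43 synaptic adhesion and vesicle genes, 9 fell and 3 rose (20.9% and 6.98%, against 7.61% and 6.07% of all genes tested; median −0.07), and 4 fell without control replicate 3. The neurexin gene Nrxn3 rose from 71.4 ± 13.7 to 141 ± 18.3 CPM (0.98, SE 0.12, adjusted p = 9.63e-05), while the postsynaptic genes Nlgn1 (−0.65, adjusted p = 0.000349) and Dlgap1 (−0.61, adjusted p = 0.000149) fell. Of 35 genes of calcium and cyclic nucleotide signalling, 3 fell (the diacylglycerol kinase Dgkb, the kinase Prkcb and the adenylyl cyclase Adcy1) and 2 rose, Rcan2 (0.59, adjusted p = 0.0029) and Adcy8 (0.55, adjusted p = 0.027); these shares, 8.57% and 5.71%, were near those of all genes tested, and up to 7 fell with a single library left out. Of 22 neuropeptide and secreted synaptic genes, 5 rose and 3 fell, and only 1 rose without BAF155 cKO replicate 4. Cbln2, a synapse organiser, fell from 27.5 ± 0.685 to 13.3 ± 2.20 CPM (−1.05, SE 0.11, adjusted p = 1.15e-05), and the tachykinin gene Tac2, found in basal progenitors too, fell from 4.63 ± 1.76 to 0.381 ± 0.0904 CPM (−3.65, SE 0.30, adjusted p = 1.1e-06). Of 14 immediate early genes, 0 were called by edgeR, 3 had an unadjusted p under 0.05, and DESeq2 called 2 and limma-voom 0.

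Of 25 glycolysis genes, 6 fell (24.0%, against 7.61% of all genes tested) and 0 rose (median −0.22), including Aldoc, the monocarboxylate transporter Slc16a1 (−0.49, adjusted p = 0.0108) and the pyruvate kinase Pkm (−0.45, adjusted p = 0.0469). The count that fell was 2 without BAF155 cKO replicate 4 or control replicate 3 or 4 and reached 11 in another such fit. Of 21 cholesterol synthesis genes, 4 fell (19%), led by the lipid regulator Srebf1 (−0.62, adjusted p = 0.00332), and 1 fell without BAF155 cKO replicate 4 or control replicate 2, 3 or 4. Of 21 genes of amino acid supply and the integrated stress response, 2 fell (9.52%, near the share of all genes), the serine synthesis enzyme Phgdh (−0.77, adjusted p = 0.0107) and the cystine transporter Slc7a11 (−0.50, adjusted p = 0.0309). Phgdh stayed called without any single library, while Slc7a11 was lost without BAF155 cKO replicate 1, 3 or 4 or control replicate 2, 3 or 4 (adjusted p = 0.0535 to 0.0918). Interferon and antigen presentation genes fell in 4 of 20 (Bst2, Irf7, Tap1 and Ifitm2). Bst2 was at 3.07 and 3.50 CPM in control replicates 1 and 2, at 1.06 and 1.0 CPM in 3 and 4, and at 0.582 to 1.09 CPM in the BAF155 cKO. Without BAF155 cKO replicate 1 none of the 4 was called.

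Imprinted genes, which are expressed from the copy of 1 parent, rose in 9 of 33 tested and fell in 1 (median 0.21). The maternally expressed noncoding RNAs and a neighbour of the Dlk1-Dio3 cluster on chromosome 12 led the list. Meg3 was at 1408, 479.9, 830.0 and 1287 CPM in the BAF155 cKO and at 652, 496, 261 and 395 CPM in control, and replicate 2 of the BAF155 cKO lay within the control range (1.15, SE 0.34, adjusted p = 0.0424). Rian was at 654, 391, 545 and 661 CPM against 385, 356, 215 and 269.6 CPM, with no overlap (0.88, SE 0.18, adjusted p = 0.00634). Mirg (1.06, adjusted p = 0.011) and Rtl1 (1.05, adjusted p = 0.0233) rose, and Dlk1, the paternally expressed gene at the other end of the cluster, had 0.07 (adjusted p = 0.86). Reads of Rtl1 and of its antisense transcript cannot be told apart in unstranded libraries. Away from the cluster, Nnat, a neuronal proteolipid gene, rose from 1818 ± 224 to 2819.7 ± 261 CPM (0.63, SE 0.12, adjusted p = 0.00244), H19 rose from 44.5 ± 6.69 to 72.5 ± 18.1 CPM (0.71, SE 0.15, adjusted p = 0.00698) and the cell cycle inhibitor Cdkn1c rose (0.45, adjusted p = 0.0312). Mest fell (−0.29, adjusted p = 0.0243), but not without BAF155 cKO replicate 1 or 4 or control replicate 4. Without control replicate 3, 4 imprinted genes rose.

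Other subunits of the BAF complex had small values. Of 31 subunit genes tested, including Smarcc1, 4 fell (12.9%, against 7.61% of all genes tested) and 0 rose (median −0.17). Smarca2, the ATPase BRM, was at 183, 202, 223 and 188 CPM in the BAF155 cKO and at 301, 268, 274 and 259.5 CPM in control (−0.47, SE 0.08, adjusted p = 0.00143). Bcl11a (−0.44, adjusted p = 0.0134) and Bicra (−0.39, adjusted p = 0.0383) also fell, and without BAF155 cKO replicate 4 only 2 subunit genes fell. The alternative ATPase Smarca4 (−0.34, adjusted p = 0.157), the DNA-binding subunit Arid1a (−0.19, adjusted p = 0.296) and the paralog Smarcc2 (−0.20, adjusted p = 0.2) did not pass the test. Against control replicates 3 and 4 alone, 13 of the 31 fell and 1 rose.

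**Figure D4:**
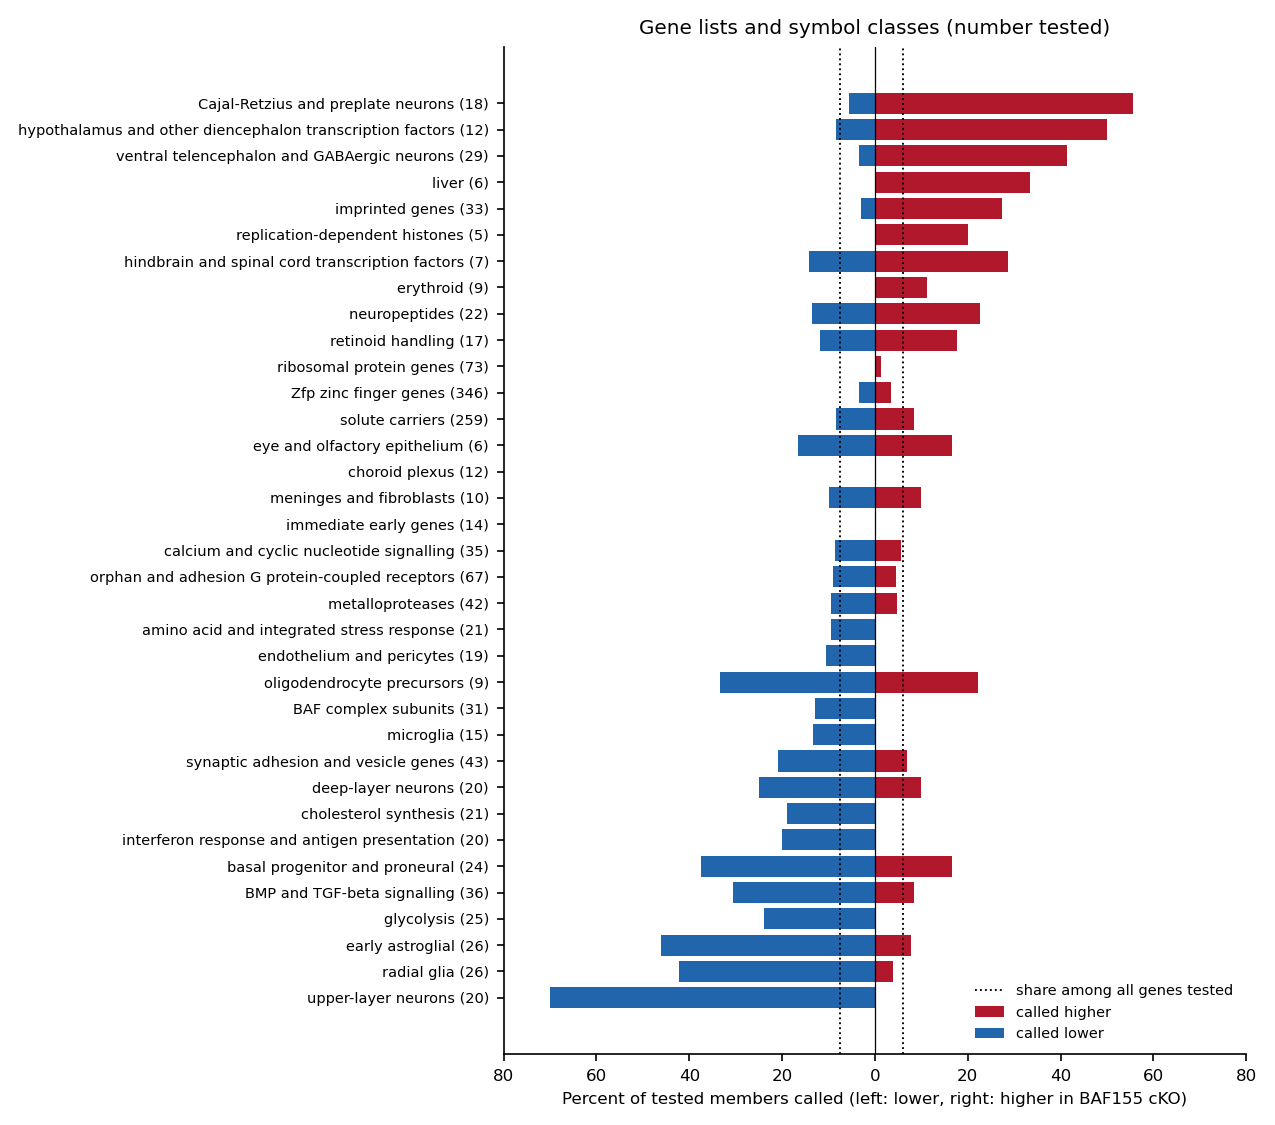
Percent of the tested genes of each list or symbol class shown that were called higher (right, red) or lower (left, blue) in the BAF155 cKO, with the number tested in brackets and dotted lines at the shares over all genes tested (6.07% higher and 7.61% lower). Upper-layer neurons stand lowest (70.0% lower) and Cajal-Retzius and preplate neurons highest (55.6% higher).

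Gene families defined by symbol lay near the background or under it. Of 259 solute carriers 22 rose and 22 fell (8.49% each), and 3 rose without BAF155 cKO replicate 4; the vesicular monoamine transporter Slc18a2 rose from 35.0 ± 9.07 to 74.5 ± 18.2 CPM (1.09, SE 0.21, adjusted p = 0.0041). Of 346 Zfp zinc finger genes 12 rose and 12 fell (3.47% each), which became 50 and 49 against control replicates 3 and 4 alone; without BAF155 cKO replicate 4, 4 rose and 3 fell. Of 67 orphan and adhesion G protein-coupled receptors 6 fell and 3 rose, and 2 fell without BAF155 cKO replicate 4. Of 42 metalloproteases 4 fell and 2 rose, and 1 fell without BAF155 cKO replicate 4; the membrane-bound protease Mmp14 fell from 109 ± 9.40 to 60.5 ± 4.35 CPM (−0.85, SE 0.08, adjusted p = 9.37e-06). Of 73 ribosomal protein genes 1 rose (1.37%), Rps27a, with a median of 0.24 for the class. Against control replicates 3 and 4 alone 38 of them rose, up to 23 did with 1 library left out, and their summed level was 10661 and 10245 CPM in control replicates 1 and 2, 8336 and 7738 CPM in 3 and 4, and 9268 to 12158 CPM in the BAF155 cKO. Their call therefore turned on which controls were used. Of 26 replication-dependent histone genes 5 were tested and 1 rose, Hist1h2be, which was not called without BAF155 cKO replicate 1, 2 or 4 or control replicate 1, 2 or 4 (adjusted p = 0.0532 to 0.0716).

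Transcripts outside protein-coding genes leaned upward. Of 1705 tested genes of 6 types, long intergenic, antisense, sense intronic, bidirectional-promoter and other processed noncoding transcripts and those still to be experimentally supported (TEC), 215 rose (12.6%) and 37 fell (2.17%), with a median of 0.39. Of 13574 protein-coding genes, 722 rose (5.32%) and 1145 fell (8.44%), with a median of −0.02, and of 378 processed pseudogenes 6 rose and 22 fell. The libraries did not share the upward lean equally. The median log2(CPM + 0.5) of the 1705 genes, less the control mean, reached 0.45 and 0.39 in knockout replicates 1 and 4 but 0.06 and 0.13 in 2 and 3, and the controls were at 0.11, 0.03, −0.06 and −0.07, so the groups overlapped. Without BAF155 cKO replicate 1, 70 rose and 32 fell, without replicate 4 these were 62 and 23, without replicate 2 they were 415 and 42, and without control replicate 3 or 4 they were 81 and 28 or 84 and 36. Replicates 1 and 4 were also those with the larger shares of mitochondrial reads, whose part in this was not tested.

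**Figure D5:**
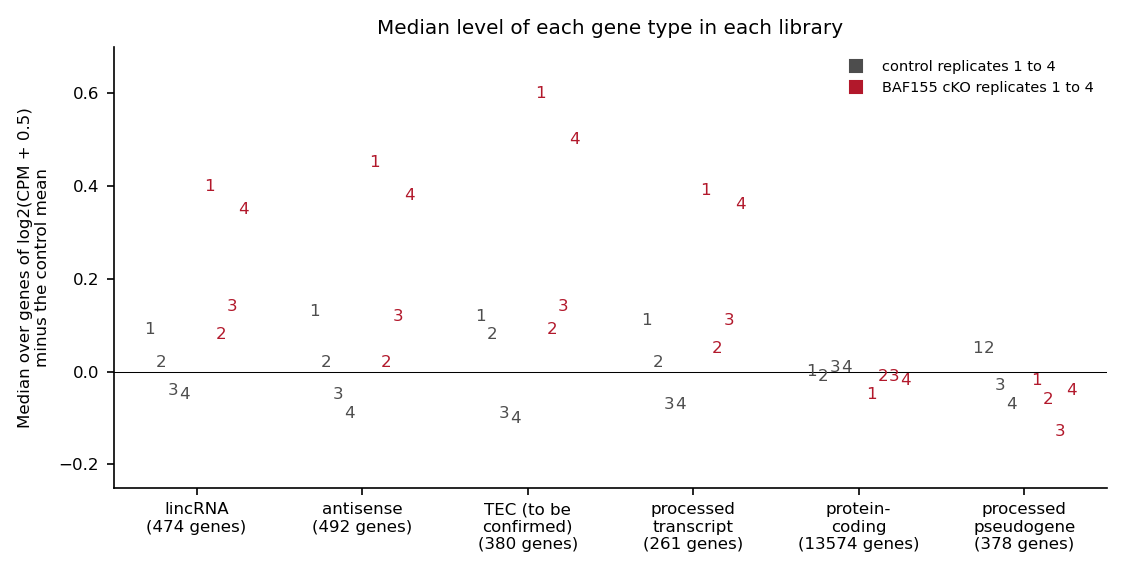
Median over genes of log2(CPM + 0.5) less the control mean, for 6 gene types in each library, with digits for the replicate numbers, control in grey and BAF155 cKO in red. BAF155 cKO replicates 1 and 4 stand highest in the 4 noncoding types, replicates 2 and 3 lie near control, and protein-coding genes stay near 0.

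Markers of cell types from outside the neural lineage were examined in the same libraries. Of 22 liver genes, 6 were tested and 2 rose, and the summed level was 15.3, 28.6, 67.5 and 324 CPM in the BAF155 cKO and 24.5 to 48.3 CPM in control. Alb, which encodes albumin, accounted for much of it, at 0.621, 1.11, 25.9 and 157 CPM against 0.0661, 0.0474, 0.0967 and 0 CPM. Its scaled ratio was 635 (272 to 1956; adjusted p = 0.0316), that of Apoa1 was 14 (9.06 to 22.7; adjusted p = 0.021), and neither was called against control replicates 3 and 4 alone. The call of Alb was lost without any 1 of the 4 controls (adjusted p = 0.055 to 0.0922), and that of Apoa1 without control replicate 3 or 4. Erythroid genes summed to 342 to 663 CPM in the BAF155 cKO, highest in replicate 4, and 267 to 369.6 CPM in control, with 1 of 9 tested called higher (Hbb-bt, 0.67, adjusted p = 0.0151). This call was lost without control replicate 3 (adjusted p = 0.0559). The part of these cells in the other results was not tested.

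Of 15 microglia genes 2 fell, Tmem119 and Cx3cr1 (13.3%, against 7.61% of all genes tested). Summed levels were 79.5 to 106 CPM against 93.0 to 129 CPM, and neither gene was called without BAF155 cKO replicate 1 or control replicate 2 or 3. Of 19 genes of endothelium and pericytes 2 fell (10.5%, against the same 7.61%), and 1 did without BAF155 cKO replicate 1 or 4 or control replicate 2 or 4. Slco1c1, a thyroid hormone transporter of brain endothelium, was at 47.7 and 45.8 CPM in control replicates 1 and 2, at 22.2 and 20.8 CPM in 3 and 4, and at 15.3 to 19.3 CPM in the BAF155 cKO (−0.99, adjusted p = 0.0135), and was not called against control replicates 3 and 4 alone (adjusted p = 0.0631). The defining endothelial genes Cldn5 (−0.17), Pecam1 (0.12) and Cdh5 (0.10) did not pass the test. Of 10 genes of meninges and fibroblasts, Dcn rose (1.09, adjusted p = 0.00442) and Cxcl12 fell from 34.7 ± 3.71 to 14.4 ± 1.42 CPM (−1.26, SE 0.10, adjusted p = 5.37e-07). Cxcl12 encodes a chemokine that guides interneurons and Cajal-Retzius cells and is made by meninges and by basal progenitors. The collagens Col1a1 (0.43), Col1a2 (−0.27) and Col3a1 (−0.01) did not pass the test. Of 12 choroid plexus genes 0 were called by edgeR, 3 had an unadjusted p under 0.05, and DESeq2 called 1 and limma-voom 0, with summed levels of 27.4 to 39.0 CPM against 31.0 to 56.3 CPM. Of 6 genes of eye and olfactory epithelium 1 rose, the pigment cell factor Mitf (0.84, adjusted p = 0.0158), and 1 fell, a call lost without BAF155 cKO replicate 3 or 4 or control replicate 3 or 4. The photoreceptor gene Crx had at most 1 read in any of the 8 libraries. Oligodendrocyte precursor genes were split, with Olig2 (0.94, adjusted p = 0.00174) and Pdgfra (0.62, adjusted p = 0.011) higher and Sox10 (−1.12, adjusted p = 0.00438), C1ql1 (−0.96, adjusted p = 0.0233) and Cspg4 (−0.41, adjusted p = 0.0302) lower among 9. Of the 3 that fell, 1 did without BAF155 cKO replicate 4 or control replicate 4.

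The direct contrast asked where the BAF155 cKO differed from the libraries labelled Pax6 cKO. Pax6 was at 389 ± 8.74 CPM there (n = 4), above the 110.2 ± 19.1 CPM of control. Counts over the whole gene do not say how much of this was intact transcript, so they cannot test the label. All BAF155 cKO libraries and none of the libraries labelled Pax6 cKO were female, and only BAF155 cKO replicates 1 and 2 shared their lane. Of the genes tested, 362 were higher in the BAF155 cKO (2.28%) and 319 lower (2.01%), 4.29% in all. Of the 24 ranked genes, 11 differed, 7 of them higher in the BAF155 cKO and 4 lower. Most ranked changes were shared: 21 of the 24 were also called against control, in the same direction, in the libraries labelled Pax6 cKO. These were 9 of the 12 that rose and 12 of the 12 that fell. Prdm13 was at 2.37 ± 0.0406 CPM in the libraries labelled Pax6 cKO against 10.7 ± 3.93 CPM in the BAF155 cKO (log2 difference 2.18, SE 0.23, adjusted p = 0.000106). Kirrel2 was at 1.83 ± 0.177 against 14.2 ± 4.09 CPM (2.96, SE 0.21, adjusted p = 3.97e-06). Cyp26b1 was at 8.67 ± 3.12 against 23.7 ± 6.51 CPM (1.45, SE 0.24, adjusted p = 0.00314), with 8.48 ± 1.34 CPM in control. These genes were highest in the BAF155 cKO. Prdm13 (3.65, adjusted p = 7.42e-06) and Kirrel2 (2.63, adjusted p = 2.55e-05) were also above control in the libraries labelled Pax6 cKO. Cyp26b1 was not called there (0.02, adjusted p = 0.953).

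Some of the genes that fell were also lower than in the libraries labelled Pax6 cKO. Lpar1, a lysophosphatidic acid receptor of cortical progenitors, was at 4.66, 4.82, 4.25 and 5.36 CPM in the BAF155 cKO, 11.1 to 12.1 CPM in the libraries labelled Pax6 cKO and 23.8, 25.3, 26.8 and 26.7 CPM in control (log2 difference −1.29, SE 0.10, adjusted p = 9.5e-06). Cxcl12 was at 14.4 ± 1.42 against 27.7 ± 0.605 CPM (−0.94, SE 0.10, adjusted p = 8.39e-05), and Smarcc1 at 127 ± 10.8 against 186 ± 6.71 CPM (−0.55, SE 0.13, adjusted p = 0.0286). Cxcl12 (−0.32, adjusted p = 0.0148) and Smarcc1 (−0.71, adjusted p = 0.00128) were lower than control in the libraries labelled Pax6 cKO too. Neurog2 (1.11, adjusted p = 0.00608) and Neurod4 (1.10, adjusted p = 0.00695), below control in both, were higher in the BAF155 cKO than in the libraries labelled Pax6 cKO. For Eomes (0.28, SE 0.17, adjusted p = 0.366), Rlbp1 (−0.25, SE 0.10, adjusted p = 0.155) and Pax6 itself (−0.31, SE 0.12, adjusted p = 0.152) a difference did not pass the test.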

How the data were processed

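RNA of each cortex sample was purified on RNeasy columns, and TruSeq RNA v2 libraries, which do not mark strand, were sequenced, per the labels' protocols. The authors deposited raw read counts per gene, 1 file per library, and the submitters' processing notes name build mm10. Aligner, counter and annotation: not given in the sources used here. Of 48709 identifiers, 48349 matched GENCODE M21, and the other 360 held at most 0.0397% of a library's reads. Without strand, reads of overlapping or antisense genes cannot be told apart, which touches Smarcc1, Ddn, Dlx1, Dlx6os1, Ly6g6e, Veph1, Tfap2d, Eomes, Kif26b, Ebf3, Trp73, Nrxn3, Nlgn1, Dlgap1, Srebf1, Mest, Nnat and Rian among others. Groups and replicate numbers came from the sample titles and lanes from the names of the count files. No label ties the libraries to separate embryos, and p-values then measure the spread between libraries, which may be technical.

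Counts were fitted in R 4.3.3 with edgeR 4.0.16 (filterByExpr, TMM scaling, robust quasi-likelihood F-test) on all 12 libraries with 1 coefficient per group, and p-values were adjusted by Benjamini-Hochberg over all 16511 genes, of which 583 on X or Y and 44 without a chromosome are not reported. Every adjusted p comes from this test, with a call under 0.05. In the reported fit, adjusted p and SE rest on the spread of all 12 libraries, including the 4 labelled Pax6 cKO, all of lane 1. SE is the absolute log2 fold change divided by the square root of F, values in brackets after a gene are log2 fold changes, and CPM uses TMM-scaled library sizes. Alternatives were RLE scaling, DESeq2 1.42.0, limma-voom (3.58.1), other filters, only the 8 libraries, a replicate block, control replicates 3 and 4 only, each lane alone and leaving out each library.

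The members, the 30 gene lists and 6 symbol classes, and the tests were chosen with earlier results of these data known. Named were Smarcc1, the 12 highest and 12 lowest genes under the conditions given, without predicted models, and from each list up to 2 called genes a direction, by lowest adjusted p, or its 2 genes of highest CPM if it had no call. Other list members are quoted to describe their list and were chosen after their values were seen. Promoters are RefSeq sequences. Some genes and 1 symbol class are not reported here.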

Additional observations from a re-analysis of the deposited data

Results flagged for a closer look

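In 224 groups of 4 libraries, the named genes in both genotypes, 7 had a highest or lowest library far from the other 3, where chance gives about 1 in 20. In BAF155 cKO replicate 2, Kirrel2 stood high at 20.3 CPM and Hist1h2be at 1.71 CPM. In BAF155 cKO replicate 4, Alb stood high at 157 CPM. In control replicate 2, Adamts19 (2.37 CPM), Dlgap1 (73.9 CPM) and Slc16a1 (30.4 CPM) stood low. In control replicate 1, Phgdh stood low at 22.9 CPM.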

How the results depend on the processing

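Smarcc1 kept its direction and call under all 18 alternatives (−1.51 to −1.16). The counts of 964 higher and 1208 lower did not keep their size. They were 367 and 636 with only the 8 libraries, 1740 and 2403 with control replicates 3 and 4 only, and 248 and 416 with the BAF155 cKO libraries of lane 1 only. Leaving out 1 library gave 335 to 1898 higher and 634 to 2035 lower. With the replicate number as a block they were 254 and 451. Deviations of same-numbered libraries correlated at 0.26, −0.223, −0.0229 and −0.228, so the numbers were not taken as pairs. RLE scaling, both filters, DESeq2 (1316 and 1485), limma-voom (784 and 1112) and lane 3 only stayed within 1.5 times. Without the filter 683 rose and 1280 fell. The cause of these shifts was not tested. Btg2, not called (−0.03, adjusted p = 0.853), was −0.11 without BAF155 cKO replicate 2 and changed sign to 0.11 with lane 1 only, 0.02 without BAF155 cKO replicate 3, 0.00 without BAF155 cKO replicate 4 or control replicate 3, and 0.03 without control replicate 4. Depth of 15.2 to 30.3 M reads leaves genes under about 1 CPM to a few reads.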

Other observations

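Several genes among the highest ranked belong to none of the lists. Wls, which carries Wnt proteins to the cell surface, was at 94.8, 116, 113 and 113 CPM in the BAF155 cKO and at 36.2, 34.2, 32.3 and 24.7 CPM in control (log2 fold change 1.78, SE 0.11, adjusted p = 8.05e-08, edgeR). Lin28b, an RNA-binding protein of early progenitors that blocks let-7 maturation, was at 14.4, 8.10, 11.2 and 14.9 CPM against 4.23, 4.83, 3.58 and 5.68 CPM (1.40, SE 0.21, adjusted p = 0.000426). Adarb2, a gene of the RNA-editing family expressed in interneurons of the caudal ganglionic eminence, rose from 17.1 ± 5.38 to 44.1 ± 7.86 CPM (1.36, SE 0.19, adjusted p = 0.000227, n = 4 each). Calb1, a calcium-binding protein, rose from 9.30 ± 2.5 to 23.4 ± 6.16 CPM (1.32, SE 0.22, adjusted p = 0.00119). In none of these genes did the groups overlap.

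Among the lowest, Dapp1, an adaptor of phosphoinositide signalling, was at 1.44, 1.46, 1.59 and 1.53 CPM in the BAF155 cKO and at 8.23, 11.7, 13.3 and 13.8 CPM in control (−2.97, SE 0.18, adjusted p = 3.62e-08). Tfap2d, an AP-2 transcription factor, fell from 11.4 ± 2.75 to 2.98 ± 0.941 CPM (−1.95, SE 0.20, adjusted p = 1.5e-05), Ly6g6e from 6.68 ± 1.92 to 1.04 ± 0.251 CPM (−2.72, SE 0.27, adjusted p = 7.86e-06) and Mlip from 6.86 ± 3.50 to 1.78 ± 0.661 CPM (−1.91, SE 0.34, adjusted p = 0.00181). In control Mlip ranged from 3.30 to 11.3 CPM.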
